A study of Mus musculus with 10 samples.

Results

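The MHC class II genes and their chaperones were followed in whole thymus of newborn mice whose blood cells had lost 1 or both copies of Usp7, the gene of a deubiquitinating enzyme also called HAUSP. The 9 members were chosen by symbol: H2-Aa, H2-Ab1, H2-Eb1, Cd74, Ciita, H2-DMa, H2-DMb1, H2-Oa and H2-Ob. They were found among the 35375 rows of the count table, 8 by their Ensembl gene ID and Ciita by a row that carries its symbol, chromosome and strand in place of an ID. All 9 passed the filter on low counts, which left 19511 genes for testing.

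Total RNA, depleted of ribosomal RNA, came from the thymus 3 days after birth. The mice had a C57BL/6J background, and Usp7 was knocked out in the hematopoietic system on both alleles (homozygous KO, 3 libraries) or on 1 allele (heterozygous KO, 3 libraries) or was wild type there (4 libraries). The series describes 2 of the wild types as carrying induced cre and 2 as lacking it, the labels do not say which, and the 4 were kept as 1 group. The cre driver, the deleted exons and the sex of the mice are not given in the sources used here, and no label says that the mice of a group came from separate litters, so p-values measure the spread between these libraries. The count table adds the word het to the names of wild types 3 and 4. The animal numbers fall into a run from 44 to 51 and a run from 56 to 63, and both runs hold libraries of each group.

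Counts summed to 39833850 to 122380785 per library, lowest in wild types 1 and 2. Levels are given as CPM, the reads of a gene in each 1e6 reads of its library, scaled by edgeR's TMM factors. Usp7 itself measured 303, 422 and 408 CPM in the homozygous KO, 472, 516 and 516 in the heterozygous KO and 676, 670, 594 and 589 in the wild type. No library of 1 group overlapped another group, and the homozygous KO stood at 59.7% of the wild-type mean (exact permutation test, two-sided, p = 0.0286, the smallest that 3 against 4 libraries allow). The heterozygous KO against the wild type gave the same exact p, but edgeR's quasi-likelihood test over all genes did not call it (log2 fold change -0.34 ± 0.11, adjusted p = 0.608). Counts cover the whole gene, so reads outside a deleted exon remain in them. The thymocyte list (Cd3e, Rag1, Lck and 9 others) summed to 12114 to 15307 CPM in each library, and Psmb11 of the cortical epithelium was present in all 10.

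MHC class II molecules are heterodimers of an alpha and a beta chain that show peptides from the endosomes to CD4+ T cells. The invariant chain, the product of Cd74, fills the groove of the new dimer, proteases trim it to the CLIP peptide, H2-DM exchanges CLIP for other peptides, and H2-O restrains H2-DM. In the thymus both the epithelium and antigen-presenting cells of blood origin (dendritic cells, macrophages and B cells) carry class II. The coactivator Ciita, itself a member, switches on Cd74 and the chain genes H2-Aa, H2-Ab1 and H2-Eb1. It docks on factors bound to the X and Y boxes in front of them.

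The shared promoter elements could be read for some members. RefSeq's promoter windows (build GRCm38.p6) held 6 of the 9 members: H2-Aa, H2-Eb1, H2-DMa, H2-DMb1, H2-Oa and H2-Ob. In the 250 bases before the start, the letters GNAAC, as in the X box, were searched for 28 to 35 bases (start to start) ahead of ATTGG, the reverse of the CCAAT that NF-Y binds at the Y box. The spacing was set after the windows had been read. On the strand of the gene this pair stood in 5 of the 6 members, 30 to 33 bases apart, and in 0.551% of all 32851 promoter windows (1.12% on either strand). ATTGG alone, on either strand, stood in 33.8% of the windows and GNAAC in 79.6%. H2-DMa had 2 windows, and the pair was in neither. The stretches of H2-Aa (chr17:34287857-34287914, minus strand), H2-Eb1 (chr17:34305766-34305822, plus strand) and H2-Ob (chr17:34238808-34238862, plus strand) are given 5′ to 3′, with both sets of letters in capitals, to show these letters in genes that moved by unequal amounts, H2-Ob furthest.
H2-Aa: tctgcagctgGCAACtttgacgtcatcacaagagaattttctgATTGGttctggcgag
H2-Eb1: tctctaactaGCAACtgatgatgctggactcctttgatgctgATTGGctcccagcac
H2-Ob: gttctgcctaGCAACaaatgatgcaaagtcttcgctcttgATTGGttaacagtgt

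All 3 stretches lay upstream of the gene on chromosome 17, outside its annotated exons. The first letters stood 81, 91 and 87 bases before the start in H2-Aa, H2-Eb1 and H2-Ob, and ATTGG stood 48, 59 and 57 bases before it. The stretches of H2-DMb1 and H2-Oa overlapped an exon of a longer GENCODE transcript of the gene. A match of letters is a description and not a bound site.

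In the homozygous KO every member was called lower than in the wild type by edgeR's quasi-likelihood test at an adjusted p under 0.05, 9 of 9, where 13.2% of all tested genes were called lower and 12.5% higher. The median log2 fold change of the 9 was -1.34, beside -0.015 over all tested genes. Against the heterozygous KO, 9 of 9 were again called lower, with a median of -1.53 (9.5% of all genes called lower, 7.63% higher). These comparisons share the homozygous libraries, and both comparisons with the wild type share its 4 libraries. In the heterozygous KO 0 of 9 members differed from the wild type, and 0.0154% of all genes were called, 3 in number (58 by DESeq2). No member reached an unadjusted p of 0.05 there, the smallest being 0.107 for H2-Ob, and DESeq2 called 0 as well. In whole tissue, fewer cells of a type and less RNA per cell cannot be told apart, and this holds for each value that follows.

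**Figure D1:**
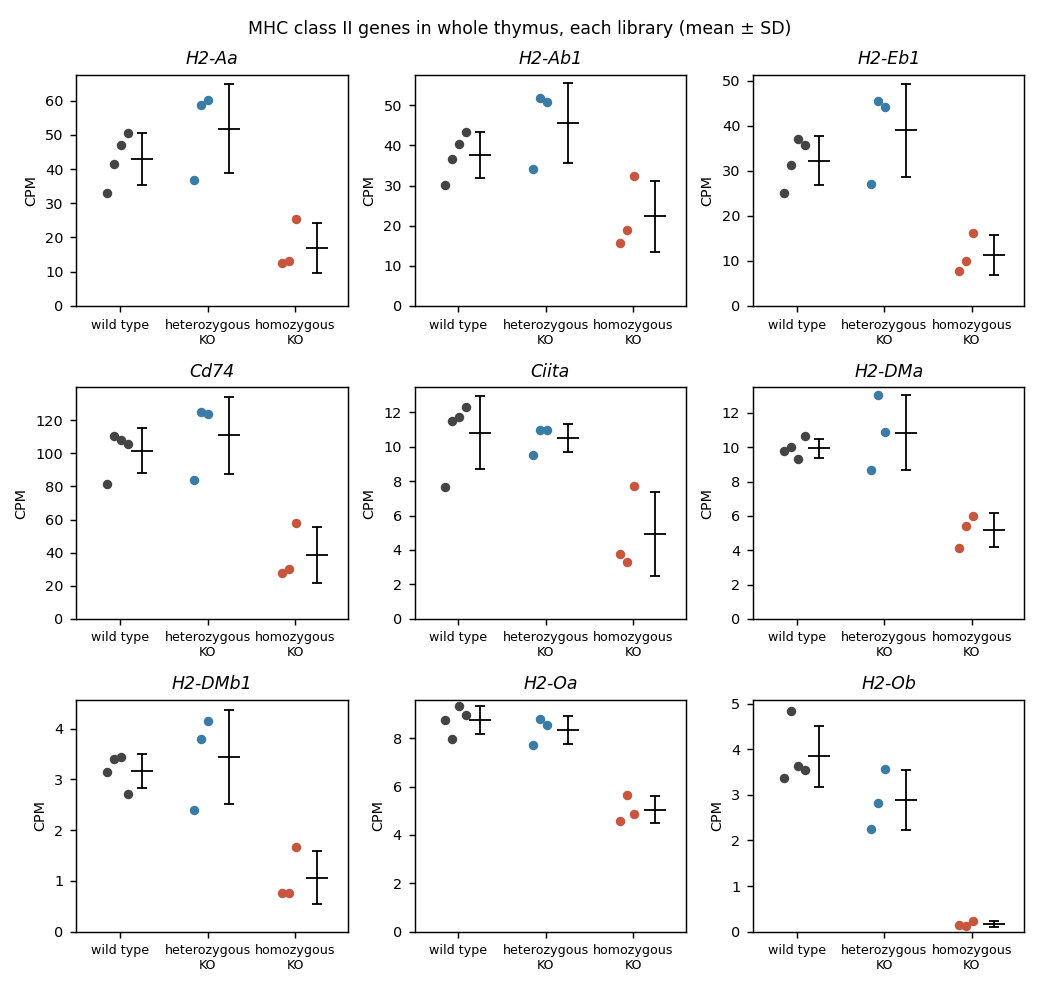
TMM-scaled CPM (y axis, from 0) of the 9 genes in each library by group (x axis), with replicates from left to right and the group mean ± SD as a bar. The homozygous libraries lie below all wild types in 7 genes and reach the lowest wild type in H2-Ab1 and Ciita, and H2-Ob stands near 0 in all 3.

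The alpha chain gene H2-Aa (chromosome 17, bases 34282744 to 34287823, minus strand, GRCm38 as annotated in GENCODE M21) measured 12.5, 13.0 and 25.4 CPM in the homozygous KO, 36.8, 58.6 and 60.1 CPM in the heterozygous KO and 32.9, 41.5, 47 and 50.4 CPM in the wild type. All 3 homozygous libraries lay below every other library, and replicate 3 stood well above replicates 1 and 2. Against the wild type the log2 fold change was -1.34 ± 0.27 (SE, n = 3 and 4, edgeR adjusted p = 0.00378), a 2.54-fold lower level, and against the heterozygous KO it was -1.61 ± 0.28 (adjusted p = 0.00241).

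Its partner H2-Ab1, the beta chain of the same I-A dimer (17, 34257689 to 34269419, plus strand), had the smallest fitted change of the 9 against the wild type. Against the heterozygous KO, and within each run of animal numbers, that place fell to H2-Oa. The homozygous libraries held 15.7, 18.9 and 32.3 CPM, the heterozygous 34.1, 51.8 and 50.8 CPM and the wild types 30.01, 36.7, 40.3 and 43.2 CPM. Homozygous replicate 3 lay above wild type 1, so these groups overlapped. The fit gave a log2 fold change of -0.75 ± 0.24 (edgeR adjusted p = 0.0369), the closest of the 9 to the threshold. The call was lost in 7 of 19 alternative settings. These were without homozygous KO replicate 1 (log2 -0.56, adjusted p = 0.11), without replicate 2 (-0.65, 0.122), without wild types 2, 3 or 4 (0.0671 to 0.0751) and with either pair of wild types alone (0.191 and 0.0694). Against the heterozygous KO the log2 fold change was -1.03 ± 0.25 (edgeR adjusted p = 0.0157), with no overlap, and the adjusted p rose to between 0.0544 and 0.059 without homozygous replicate 2 or heterozygous replicates 2 or 3.

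H2-Eb1 encodes the beta chain of the I-E molecule (17, 34305867 to 34316674, plus strand). It measured 7.66, 9.98 and 16.2 CPM in the homozygous KO, 27.1, 45.5 and 44.2 CPM in the heterozygous KO and 24.9, 31.2, 36.9 and 35.7 CPM in the wild type. The homozygous libraries stayed below all others, at 35% of the wild-type mean. Its log2 fold change was -1.52 ± 0.26 (edgeR adjusted p = 0.00167) against the wild type and -1.79 ± 0.27 (adjusted p = 0.00112) against the heterozygous KO. The alpha chain that would pair with it, H2-Ea-ps, is annotated as a polymorphic pseudogene and is deleted at its promoter in mice of this background. It held 1 read in heterozygous replicate 3, 1 in wild type 3 and 0 in the other 8 libraries. A count of 0 allows up to 0.0245 to 0.0753 CPM, depending on the library, for counting error only. These limits use library totals without TMM scaling. The relative H2-Eb2 fell from 1.06 to 2.17 CPM in the wild types to 0.330, 0.245 and 0.610 CPM (log2 -1.94 ± 0.36, edgeR adjusted p = 0.00273). None of the 50-base windows of its transcripts was shared with those of H2-Eb1.

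Cd74, the invariant chain that chaperones the new dimer (chromosome 18, 60803848 to 60812652, plus strand), was the most abundant member. It measured 27.5, 29.9 and 58.0 CPM in the homozygous KO, 84.2, 125 and 124 CPM in the heterozygous KO and 81.4, 111, 108 and 106 CPM in the wild type. The highest homozygous library was below the lowest wild type. The log2 fold change was -1.40 ± 0.25 (edgeR adjusted p = 0.00198) against the wild type and -1.53 ± 0.26 (adjusted p = 0.00216) against the heterozygous KO. Its exons overlap those of Mir5107 on the same strand, and reads of the 2 cannot be told apart in the counts.

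Ciita, the coactivator of class II genes (chromosome 16, 10480059 to 10528418, plus strand), fell as well. The homozygous libraries measured 3.76, 3.31 and 7.73 CPM, the heterozygous 9.54, 10.99 and 10.98 CPM and the wild types 7.66, 11.5, 11.8 and 12.3 CPM. Homozygous replicate 3 and wild type 1 met at nearly 1 value, and the other libraries were apart. The log2 fold change was -1.14 ± 0.27 (edgeR adjusted p = 0.0109) against the wild type and -1.09 ± 0.29 (adjusted p = 0.0227) against the heterozygous KO. With wild types 1 and 2 alone the first became -0.96 (adjusted p = 0.0784), and the second had an adjusted p of 0.0629 to 0.0682 without homozygous replicates 1 or 2 or heterozygous replicates 2 or 3. Dexi overlaps Ciita on the other strand. The library kit was stranded, but whether reads were counted by strand is not given in the sources used here, so the split of reads is uncertain for this pair, for H2-DMa with Brd2 and for H2-Oa with BC051537.

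The peptide exchanger is the dimer of H2-DMa and H2-DMb1. H2-DMa (17, 34119541 to 34139101, plus strand) measured 4.11, 5.44 and 6.02 CPM in the homozygous KO, 8.65, 13.0 and 10.9 CPM in the heterozygous KO and 9.80, 10.04, 9.33 and 10.7 CPM in the wild type. The wild types were close together, with an SD of 0.551 CPM, and no homozygous library reached them. The fit gave a log2 fold change of -0.94 ± 0.16 (edgeR adjusted p = 0.0017) against the wild type and -1.06 ± 0.17 (adjusted p = 0.00149) against the heterozygous KO.

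H2-DMb1, its beta chain (17, 34153072 to 34160230, plus strand), measured 0.755, 0.763 and 1.66 CPM in the homozygous KO, 2.39, 3.79 and 4.14 CPM in the heterozygous KO and 3.14, 3.39, 3.43 and 2.71 CPM in the wild type. The homozygous libraries stood apart from the others, at 33.5% of the wild-type mean. Their log2 fold change was -1.58 ± 0.31 (edgeR adjusted p = 0.00336) against the wild type and -1.70 ± 0.32 (adjusted p = 0.00396) against the heterozygous KO. The neighbouring copy H2-DMb2 held 1.40, 1.79 and 2.53 CPM against 4.84 to 5.87 CPM in the wild types (log2 -1.50 ± 0.20, edgeR adjusted p = 0.000341). Of the 50-base windows of H2-DMb1 transcripts, 22.7% were shared with H2-DMb2, so the split of reads between the copies is uncertain, while both fell.

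H2-Oa and H2-Ob encode the dimer that restrains H2-DM, best known from B cells. H2-Oa (17, 34092340 to 34095234, plus strand) measured 4.58, 5.65 and 4.89 CPM in the homozygous KO, 7.71, 8.81 and 8.56 CPM in the heterozygous KO and 8.77, 7.97, 9.33 and 8.96 CPM in the wild type. The homozygous libraries lay below all others and the libraries within each were close. This gave a log2 fold change of -0.80 ± 0.11 (edgeR adjusted p = 0.000519) against the wild type and -0.73 ± 0.12 (adjusted p = 0.00175) against the heterozygous KO.

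H2-Ob (17, 34238903 to 34254414, plus strand) fell furthest. It measured 0.139, 0.127 and 0.244 CPM in the homozygous KO, from 16, 13 and 22 reads, 2.25, 2.83 and 3.57 CPM in the heterozygous KO and 3.36, 4.84, 3.63 and 3.55 CPM in the wild type. The homozygous level was 4.42% of the wild-type mean, 22.7-fold lower by the fit (log2 -4.50 ± 0.30, edgeR adjusted p = 3.44e-06). Against the heterozygous KO the log2 fold change was -4.09 ± 0.30 (adjusted p = 9.35e-06). In the heterozygous KO the level was 74.9% of the wild-type mean, with overlapping libraries (log2 -0.41 ± 0.24, adjusted p = 0.762).

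The groups did not overlap in 7 of the 9 members between homozygous KO and wild type, where 16.4% of all genes were lower without overlap, and in 9 of 9 between homozygous and heterozygous KO, where the share was 16.8%. Within the run of animal numbers 44 to 51 the log2 difference from the wild type ranged from -4.75 (H2-Ob) to -0.92 (H2-Oa), and within 56 to 63 from -4.29 to -0.77, so that all 9 were lower in both runs. Heterozygous KO and wild type differed by -0.41 to 0.28 on the log2 scale in the fit. Within animals 44 to 51 all 9 heterozygous values were lower than the wild type (-0.79 to -0.05), and within 56 to 63 they ranged from -0.16 to 0.55. Each run holds 1 to 3 libraries of a group, and these values carry no test.

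**Figure D2:**
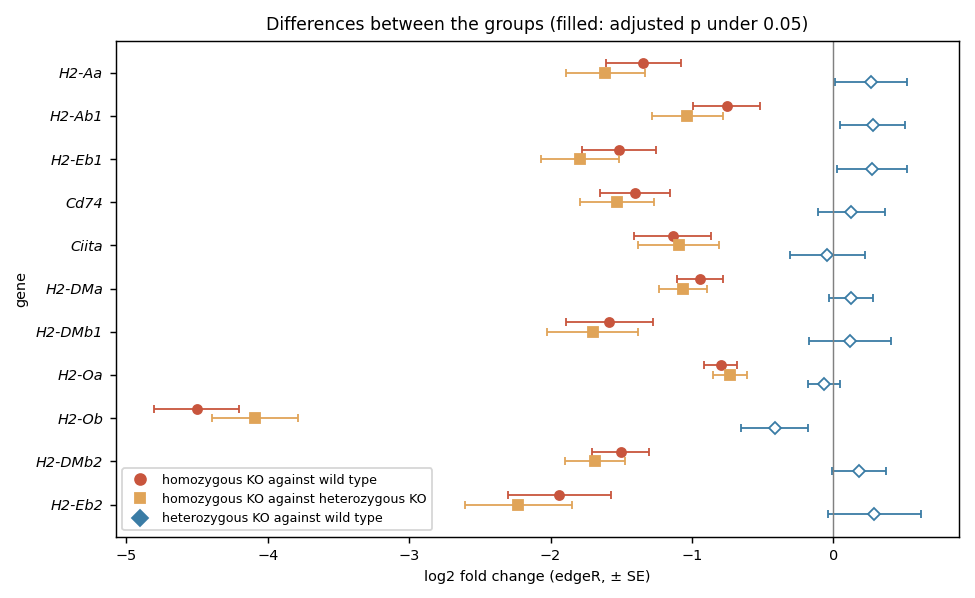
Log2 fold change (x axis, edgeR, error bars ± SE) of the 9 members and of H2-DMb2 and H2-Eb2 (y axis) in the 3 comparisons, with filled symbols for an adjusted p under 0.05. All values of the homozygous KO lie left of 0 with H2-Ob near -4.50 and -4.09, and the heterozygous values lie between -0.41 and 0.29 with open symbols.

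Levels of different genes were set side by side per kilobase of the principal transcript. In the wild type Cd74 stood at 72.0 ± 9.63 CPM per kilobase (SD, n = 4), H2-Aa at 38.1 ± 6.78, H2-Ab1 at 31.0 ± 4.70, H2-Eb1 at 19.3 ± 3.25, H2-Oa at 8.05 ± 0.528, H2-DMa at 6.00 ± 0.333, H2-DMb1 at 2.26 ± 0.237, Ciita at 1.80 ± 0.353 and H2-Ob at 1.44 ± 0.251. The libraries of neighbours in this order overlapped for H2-Aa and H2-Ab1, for H2-DMb1 and Ciita, and for Ciita and H2-Ob, and were apart elsewhere. In the homozygous KO the order changed at 2 places on this scale, where H2-Ab1 (18.4 ± 7.24 CPM per kilobase, n = 3) stood above H2-Aa (15.0 ± 6.46) and Ciita (0.821 ± 0.405) above H2-DMb1 (0.755 ± 0.372), both within their spread. Dividing by the length of all exons merged instead placed H2-Eb1 (16.6 CPM per kilobase in the wild type) above H2-Ab1 (14.6) and H2-Aa (11.3).

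Whether the members kept their proportions was measured by 5 ratios of counts within a library. The ratio of H2-Aa to H2-Ab1 reads was 0.796, 0.690 and 0.787 in the homozygous KO against 1.10, 1.13, 1.17 and 1.17 in the wild type and 1.08, 1.13 and 1.18 in the heterozygous KO. The homozygous libraries lay apart from all others, with a difference from the wild type of -0.59 on the log2 scale. The ratio of Cd74 to H2-Ab1 was 1.75, 1.58 and 1.80 against 2.71, 3.02, 2.69 and 2.45 in the wild type (log2 difference -0.67). The ratio of Ciita to H2-Ab1 was 0.239, 0.175 and 0.240 against 0.255, 0.314, 0.292 and 0.285 (-0.41). H2-Ob to H2-DMb1 gave 0.184, 0.167 and 0.147 against 1.07, 1.43, 1.06 and 1.31 (-2.87). Each of these 4 ratios was lower in all 3 homozygous libraries than in the 4 wild types (exact permutation test, two-sided, p = 0.0286, the smallest possible), and none passed after adjustment over the 15 ratio tests (adjusted p = 0.0857).

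The remaining ratio, of H2-Oa to H2-DMa, was 1.11, 1.04 and 0.812 in the homozygous KO and 0.895, 0.794, 1 and 0.841 in the wild type. The groups overlapped (log2 difference 0.16, exact permutation p = 0.286, adjusted p = 0.33). In the heterozygous KO the ratio of H2-Ob to H2-DMb1 was 0.941, 0.746 and 0.863, below every wild type (log2 difference -0.51, exact permutation p = 0.0286, adjusted p = 0.0857), while both genes overlapped the wild types on their own. Against the heterozygous KO no ratio of the homozygous KO could go below an exact p of 0.1, the smallest for 3 against 3 libraries.

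**Figure D3:**
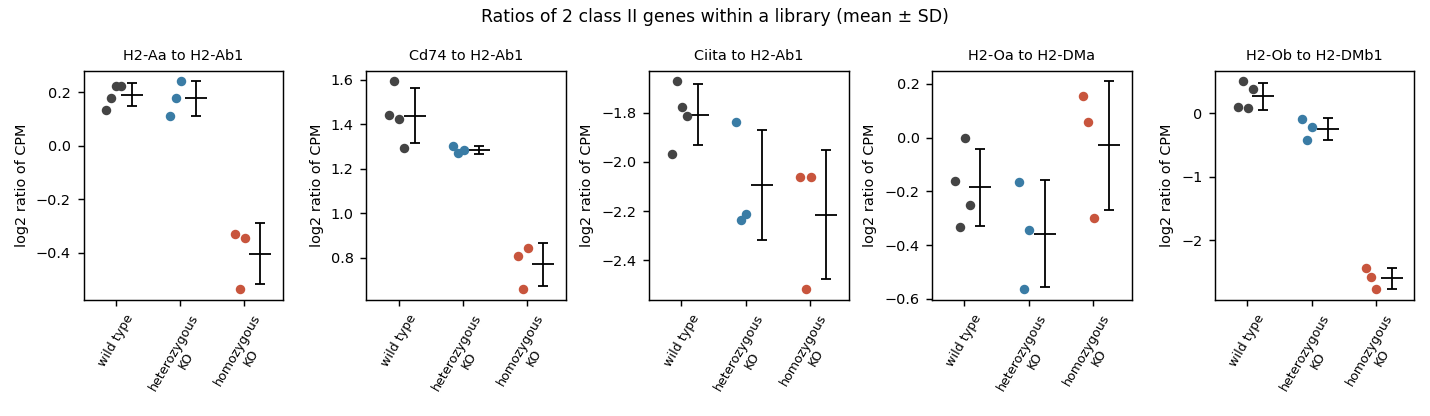
Log2 ratio of the counts of 2 genes within each library (y axis) by group (x axis), with the group mean ± SD as a bar. The homozygous libraries lie below the wild types in H2-Aa to H2-Ab1, Cd74 to H2-Ab1, Ciita to H2-Ab1 and H2-Ob to H2-DMb1 and overlap them in H2-Oa to H2-DMa.

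Among the factors that bind class II promoters (Rfx5, Rfxap, Rfxank, Nfya, Nfyb, Nfyc and Creb1), 0 of 7 were called lower and 3 higher in the homozygous KO than in the wild type, with a median log2 fold change of 0.21. Nfya, the subunit of NF-Y that touches the DNA, rose by 0.46 ± 0.07 (edgeR adjusted p = 0.000583), Nfyc by 0.25 ± 0.05 (adjusted p = 0.00548) and Rfxap, a subunit of RFX, by 0.35 ± 0.11 (adjusted p = 0.036). Nfyc was not called under scaling by library totals alone, and Rfxap was called in 10 of 19 alternative settings. Of the 8 genes of the interferon-gamma route to Ciita, 1 was called higher and 3 lower (median log2 fold change -0.15). The receptor chain Ifngr1 rose by 1.15 ± 0.10 on the log2 scale (adjusted p = 1.78e-05), and the other chain Ifngr2 and the kinase Jak1 fell by 0.35 ± 0.07 and 0.31 ± 0.05 (adjusted p = 0.00579 and 0.00175).

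All 5 lineage factors known to act on Ciita promoters were called lower in the homozygous KO (median log2 fold change -1.50). Irf8, of dendritic cells and macrophages, measured 7.49, 6.96 and 6.44 CPM against 19.4 to 22.4 CPM in the wild types (log2 -1.58 ± 0.09, edgeR adjusted p = 1.22e-06). Irf4, of B cells and activated dendritic cells, measured 9.52, 7.01 and 5.64 CPM against 16.8 to 22.2 CPM (-1.38 ± 0.18, adjusted p = 0.000326). Spi1, the myeloid factor PU.1, had a log2 fold change of -0.96 ± 0.32 (adjusted p = 0.0458) and was called in 7 of 19 alternative settings. Pax5, the B-cell factor, held 7, 1 and 0 reads in the homozygous libraries. Prdm1, a repressor of Ciita in plasma cells, fell too (-1.50 ± 0.22, adjusted p = 0.000631). Pax5 and Prdm1 complete the list and lie below the level set for naming genes.

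Of 10 proteases, inhibitors and reductases that prepare peptides and trim the invariant chain, 5 were called lower and 1 higher (median log2 fold change -0.22). Ctss, the protease that makes CLIP in blood-derived antigen-presenting cells, measured 5.71, 6.33 and 5.93 CPM in the homozygous KO against 19.0 to 23.2 CPM in the wild types (log2 -1.78 ± 0.11, edgeR adjusted p = 1.59e-06). Lgmn, an endosomal asparaginyl protease, fell by 1.30 ± 0.23 (adjusted p = 0.00179), Ctsh by 0.99 ± 0.18 (adjusted p = 0.00213) and Ifi30, the thiol reductase GILT, by 0.93 ± 0.08 (adjusted p = 2.22e-05). The only gene called higher was Ctsl, which does the work of Ctss in the cortical epithelium of the thymus. It measured 136, 173 and 212 CPM in the homozygous KO and 98.3, 108, 100 and 139 CPM in the wild types, which overlap (0.64 ± 0.19, adjusted p = 0.0283). Ctsl was picked out after its values were seen. Cd83, which keeps class II at the surface, fell by 1.10 ± 0.28 (adjusted p = 0.0149) and was not called without homozygous KO replicate 2 or with wild types 1 and 2 alone. Lag3, a receptor for class II on T cells, fell by 0.47 ± 0.14 (adjusted p = 0.0274) and was called in 11 of 19 alternative settings, and Cd4 had a log2 fold change of 0.16 (adjusted p = 0.163).

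The other genes that sit inside the class II region of chromosome 17 were looked at as well. Over all tested genes 13.2% were called lower and 12.5% higher, and a list of 5 is too short to be set apart from these shares. Of Psmb8, Psmb9, Tap1, Tap2 and Brd2, which serve class I presentation or chromatin, 0 of 5 were called by edgeR in the homozygous KO, 0 had an unadjusted p under 0.05 and DESeq2 called 0. Their log2 fold changes ranged from -0.07 (Psmb9) to 0.23 (Brd2). Btnl2 was below the filter.

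Marker lists of the cells that carry class II moved unevenly. Of 11 dendritic cell genes, 10 were called lower in the homozygous KO and 0 higher (median log2 fold change -2.24), and their summed level was 32.6 to 49.0 CPM against 92.4 to 129 CPM in the wild types (31.5 to 36.0 against 56.7 to 72.1 CPM without Ccr7, the most abundant). Flt3, the cytokine receptor of their precursors, fell by 3.64 ± 0.30 on the log2 scale (edgeR adjusted p = 1.18e-05), Itgax by 1.71 ± 0.25 (adjusted p = 0.000555) and Xcr1, of cross-presenting cells, by 1.53 ± 0.28 (adjusted p = 0.00224). Ccr7, a homing receptor not confined to dendritic cells, measured 13.0, 1.35 and 1.14 CPM in the homozygous KO against 33.7 to 56.7 CPM. It fell by 2.96 ± 0.71 (adjusted p = 0.0109) and was not called by DESeq2 or with wild types 1 and 2 alone. Cd209a and Siglech were at 0 in at least 1 homozygous library. The part of these cells in the fall of the class II genes was not tested.

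Of 10 B-cell genes, 9 were called lower (median -3.44). Without Ighm, which did not pass the test and held 286 to 339 CPM over all homozygous and wild-type libraries, the list summed to 7.71 to 10.2 CPM in the homozygous KO and 39.7 to 66.8 CPM in the wild type. Ms4a1, the gene of CD20, held 1, 1 and 0 reads in the homozygous libraries and 2.92 to 8.04 CPM in the wild types, and Igkc held 3, 0 and 0 reads and 4.22 to 8.37 CPM. Both passed the test, and no fold is given at such counts. Fcer2a, a receptor for IgE on B cells, fell by 2.29 ± 0.26 on the log2 scale (edgeR adjusted p = 0.000121), beside 4.50 for H2-Ob. The part of B cells in the level of H2-Ob was not tested.

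Of 10 macrophage and monocyte genes, 8 were called lower (median -1.37). The complement genes C1qa, C1qc and C1qb fell by 2.37 ± 0.30, 1.85 ± 0.22 and 1.54 ± 0.20 on the log2 scale (edgeR adjusted p = 0.000243, 0.00016 and 0.000254) and the receptor Csf1r by 1.45 ± 0.18 (adjusted p = 0.000194). The summed level of the list, 44 to 72.0 CPM in the homozygous KO, lay below the wild types at 75.2 to 108 CPM. The most abundant gene of the list, Lyz2, which macrophages and neutrophils share, measured 16.4, 47.4 and 32.9 CPM in the homozygous KO and 21.3 to 32.9 CPM in the wild types and was not called. Without it the sums were 24.5 to 27.7 CPM against 53.9 to 75.0 CPM. In the heterozygous KO no gene of the dendritic cell, B cell and macrophage lists was called, and the sums were 86.0 to 103 CPM, 37.7 to 42.5 CPM without Ighm and 68.2 to 99.5 CPM.

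Of 8 genes of the cortical epithelium, 0 were called in the homozygous KO against the wild type. Over all tested genes 13.2% were called lower and 12.5% higher in that comparison. Of the 8, 0 had an unadjusted p under 0.05 and DESeq2 called 0 (median log2 fold change 0.13). Against the heterozygous KO 0 of these genes were called, 7 of 8 lay below 0 and 2 had an unadjusted edgeR p under 0.05 (median -0.22). Their summed level was 135, 139 and 260 CPM in the homozygous KO, 124, 264 and 233 CPM in the heterozygous KO and 122.9, 176, 153 and 196 CPM in the wild type. Homozygous replicate 3 was the highest of its group here and in 8 of the 9 class II genes, and heterozygous replicate 1 was the lowest of its group here and in all 9. Wild type 1 was the lowest here and in 6 of the 9. This order was not particular to the cortical list. Heterozygous replicate 1 was also lowest in the dendritic cell, macrophage and medullary epithelium lists (86.0, 68.2 and 42.3 CPM). Wild type 1 was also lowest in the macrophage list (75.2 CPM) but highest in the medullary list (76.2 CPM). Homozygous replicate 3 was also highest in the medullary list (78.4 CPM) but lowest in the dendritic cell list (32.6 CPM).

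The medullary epithelium list was split, with 2 of 8 genes called lower and 3 higher (median log2 fold change 0.21). Cldn4, a tight-junction gene not confined to the medulla, fell by 2.41 ± 0.10 on the log2 scale (edgeR adjusted p = 1.23e-07) and Aire by 2.37 ± 0.39 (adjusted p = 0.00129). In the wild types Cldn4 measured 21.8 to 25.3 CPM and Aire 0.842 to 2.12 CPM, and the cell source of Cldn4 was not tested. Krt5 rose by 2.77 ± 0.40 (adjusted p = 0.000552), Krt14 by 2.39 ± 0.60 (adjusted p = 0.0131) and Cd80 by 0.64 ± 0.20 (adjusted p = 0.0397), the last called in 6 of 19 alternative settings. Aire and Krt14 lie below the level set for naming genes and are given because they complete the 5.

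**Figure D4:**
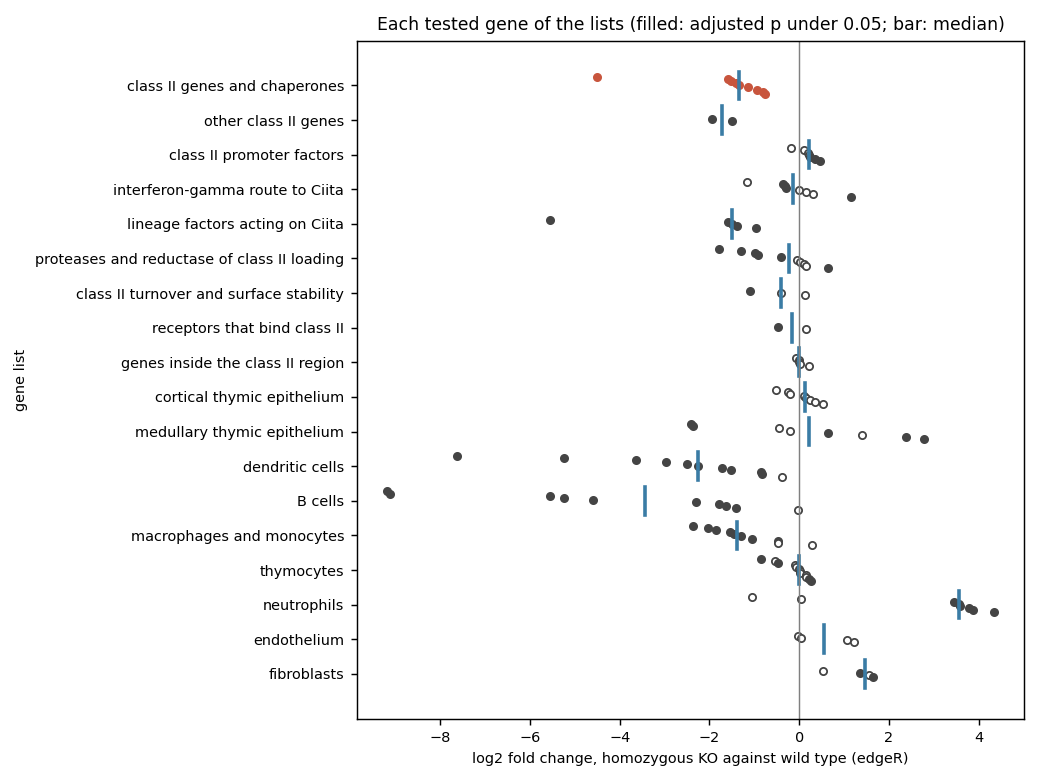
Log2 fold change of the homozygous KO against the wild type (x axis, edgeR) for each tested gene of the lists (y axis), with filled points for an adjusted p under 0.05 and a bar at each list's median. The class II genes lie on the same side as the dendritic cell, B cell and macrophage lists, while the cortical epithelium and the neighbours inside the class II region hold open points around 0.

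The summed level of H2-Aa, H2-Ab1, H2-Eb1 and Cd74 was set against the cortical epithelium, dendritic cell and macrophage lists library by library. The measure was chosen after the values had been seen and is given without a test. No quotient was taken with the other lists. Of these, the medullary list summed to 25.6 to 78.4 CPM in the homozygous KO against 57.5 to 76.2 CPM in the wild types. The B-cell list without Ighm summed to 7.71 to 10.2 against 39.7 to 66.8 CPM. Divided by the cortical epithelium list, the summed class II level was 0.471, 0.517 and 0.507 in the homozygous KO, 1.47, 1.06 and 1.19 in the heterozygous KO and 1.38, 1.25, 1.52 and 1.20 in the wild type. On this scale the 3 homozygous libraries, whose summed class II level ranged from 63.3 to 132 CPM, stood close together at 0.498 ± 0.0244 (SD, n = 3), below all others. Divided by the dendritic cell list it was 1.29, 2.08 and 4.04 in the homozygous KO and 1.80 to 2.55 in the wild types, so the groups overlapped. Divided by the macrophage list the homozygous values were 1.44, 0.998 and 2.18 against 2.15 to 2.57 in the wild types, and these groups overlapped too. With the most abundant gene of each list left out, the quotient was 0.71 to 0.73 against 1.75 to 2.18 for the cortical epithelium without Prss16, again with no overlap. It was 1.76 to 4.19 against 2.81 to 4.15 for the dendritic cells without Ccr7. For the macrophages without Lyz2 it was 2.30, 2.93 and 4.75 against 3.10 to 3.62, so that the homozygous libraries lay on both sides of the wild types.

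**Figure D5:**
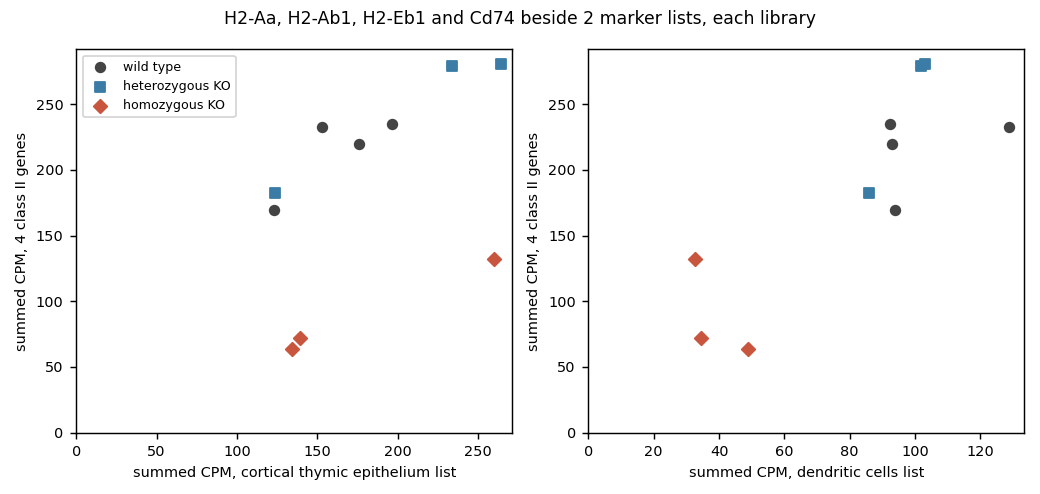
Summed CPM of H2-Aa, H2-Ab1, H2-Eb1 and Cd74 (y axis) against the summed CPM of the cortical epithelium list (left) and of the dendritic cell list (right) in each of the 10 libraries. The homozygous libraries hold 0.471 to 0.517 CPM of the 4 genes per CPM of the cortical list, against 1.20 to 1.52 in the wild types. They alone lie at dendritic sums of 32.6 to 49.0 CPM.

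Across the 10 libraries the genes most like the mean of H2-Aa, H2-Ab1, H2-Eb1 and Cd74, by the root mean square difference of log2 CPM after each gene was centred, were looked for among the 9825 genes whose log2 CPM averaged 2 or more. Outside the 9 members they were H2-DMb2 (0.175), Mmp14 (0.200), the macrophage gene C1qb (0.210), Vcam1 (0.212) and Cd83 (0.214). Mmp14 encodes a membrane-bound metalloproteinase and Vcam1 an adhesion molecule. Among the members the difference ran from 0.0681 for H2-Aa, which is part of the mean, through 0.211 for Ciita and 0.291 for H2-DMa to 0.446 for H2-Oa and 1.37 for H2-Ob. The 10 libraries share 3 groups, and the measure is a description.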

How the data were processed

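Whole thymus of 10 mice was profiled by stranded total RNA-seq after depletion of ribosomal RNA. Per the submitters' processing notes the deposited file holds raw counts per gene (CASAVA, STAR 2.4.1d, HTSeq 0.6.1p1, NCBIM37/mm9). The annotation release and strand setting are not given in the sources used here. Symbols and coordinates came from GENCODE M21 (GRCm38), which matched 30221 of 34467 Ensembl IDs, and 128 of 908 other row names matched by symbol, chromosome and strand.

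Counts were scaled by TMM, filtered with filterByExpr and fitted in 1 quasi-likelihood model of 10 libraries (edgeR 4.0.16, R 4.3.3), checked on simulated data. Calls used a Benjamini-Hochberg adjusted p under 0.05, and SEs came from the fold change and F. CPM values were TMM-scaled, and log2 CPM used a prior of 0.5. Ratios and Usp7 were tested by exact permutation. Within-group pairs of libraries differed beyond sampling noise (chi-square per degree of freedom 13.45 to 116.1, 12 pairs), so each counted once. The members and gene lists were chosen with earlier results of these data known. Named genes were the 9 members, H2-DMb2, H2-Eb2, H2-Ea-ps, up to 4 called genes per list with the largest change among those averaging 1 or more in log2 CPM, and the 5 genes most like the core members. Ccl21a of the medullary list had no row, and single-gene values of some list members are not reported here. Thymocyte, neutrophil, endothelium and fibroblast lists served as further markers. Alternatives were median-ratio scaling, library totals alone, no filter, DESeq2 1.42.0, a replicate block, an animal-number block, Xist as a covariate, each pair of wild types and leaving out each library. Counts of list genes under these alternatives were added after the data had been seen.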

Additional observations from a re-analysis of the deposited data

Results flagged for a closer look

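Cd74 in wild type 1 was 81.4 CPM, far below the other wild types at 106 to 111 CPM (its gap to the next was 0.836 of the group's range), and Ciita in the same library was 7.66 CPM against 11.5 to 12.3 CPM (0.8292 of the range, barely past Dixon's limit for 4 samples). Chance gives such a gap in about 1 of 20 groups, and 9 were looked at. Wild type 1 also had the lowest summed cortical epithelium list of its group, 122.9 CPM, and the smallest total count, and their part was not tested.

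Among heterozygous libraries 6 of the 9 members lay below the wild type in one run of animal numbers and above it in the other, among them H2-Aa (log2 -0.12 and 0.23) and H2-Eb1 (-0.18 and 0.33). In H2-DMa and H2-DMb1 the libraries of both groups were also apart within each run. Against the wild types of animals 44 to 51 the log2 differences were -0.17 for H2-DMa and -0.47 for H2-DMb1, and within animals 56 to 63 they were 0.16 and 0.55. The first value of each rests on 1 heterozygous library and the second on 1 wild type, and the difference between the runs was not tested.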

How the results depend on the processing

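The 9 members were called in both comparisons of the homozygous KO, and 0 in the heterozygous KO, under median-ratio scaling, library totals alone, no filter, DESeq2, the Xist covariate and the animal-number block. With wild types 1 and 2 alone 7 were called against the wild type, with 3 and 4 alone 8, and with 1 library left out 8 to 9, or 7 to 9 against the heterozygous KO. H2-Ab1 and Ciita were the members that lost calls. The shared replicate numbers do not pair the libraries (correlations of deviations -0.0906 to 0.2 over 9 pairs), and a replicate block left 9, 9 and 0 calls. Of 42 named list genes, 29 kept their call in all 19 settings and 0 changed sign, and dendritic cell genes called lower fell to 6 of 11 with wild types 1 and 2 alone. Over all genes, 5030 calls against the wild type became 2670 with wild types 3 and 4 alone, and the 1853 lower and 1489 higher calls against the heterozygous KO became 2153 in all without heterozygous KO replicate 3. Library totals alone moved the median of all genes to -0.11. Exact tests of 3 against 4 libraries cannot go below 0.0286.

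In the heterozygous KO, where no member was called, the sign turned with the animal-number block for Cd74 (-0.079), H2-DMa (-0.036) and H2-DMb1 (-0.071), and for Ciita with the replicate block (0.054), the Xist covariate (0.59) and wild types 1 and 2 alone (0.13). With 1 library left out, Ciita ranged from -0.18 to 0.029, H2-DMa from -0.025 to 0.27 and H2-DMb1 from -0.036 to 0.33. Within animals 56 to 63 the log2 ratio of Cd74 to H2-Ab1 differed from the wild type by -0.54 in the homozygous and -0.016 in the heterozygous KO. Within 44 to 51 Ciita to H2-Ab1 differed by -0.031 in the heterozygous KO, and H2-Aa to H2-Ab1 by -0.44 between homozygous and heterozygous KO. With 1 library left out, H2-Aa to H2-Ab1 in the heterozygous KO ranged from -0.045 to 0.020, and Ciita to H2-Ab1 between both KO groups from -0.19 to 0.033. The cause was not tested.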

Other observations

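Lists of cells that are not counted among the carriers of class II were compared between homozygous KO and wild type as well. Over all tested genes 13.2% were called lower and 12.5% higher there. Of 8 neutrophil genes, 6 were called higher and 0 lower (median log2 fold change 3.57), and their summed level was 55.97, 312 and 148 CPM in the homozygous KO against 7.90 to 24.4 CPM in the wild types and 6.45 to 12.2 CPM in the heterozygous KO. The granule genes Lcn2 and Ltf rose by 4.35 ± 0.58 and 3.89 ± 0.57 (edgeR adjusted p = 0.000326 and 0.000578), and the calgranulins S100a8 and S100a9 by 3.78 ± 0.63 and 3.59 ± 0.55 (adjusted p = 0.00138 and 0.000831). The 3 homozygous libraries differed widely in these genes, and the sum of each lay above every wild type. The bearing of these genes on the class II levels was not tested. Of 4 fibroblast genes, 2 were called higher, the collagens Col1a1 (1.36 ± 0.42, adjusted p = 0.0349) and Col1a2 (1.66 ± 0.46, adjusted p = 0.0213), which lost their calls in 9 and 3 of 19 alternative settings. Of 4 endothelial genes 0 were called, with 1 at an unadjusted p under 0.05 and 1 by DESeq2.

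Of 12 thymocyte genes, 2 were called lower and 2 higher (median 0.01), near the shares over all tested genes. The recombinase gene Rag1 fell by 0.85 ± 0.07 (edgeR adjusted p = 1.49e-05) and Dntt, of the same stage, by 0.46 ± 0.14 (adjusted p = 0.0286), called in 11 of 19 alternative settings. Cd8a rose by 0.26 ± 0.07 (adjusted p = 0.0148) and the kinase gene Lck by 0.23 ± 0.06 (adjusted p = 0.0115), neither being called under scaling by library totals alone or with wild types 3 and 4 alone. The list summed to 12114 to 12470 CPM in the homozygous KO and 13572 to 15307 CPM in the wild type. In the heterozygous KO none of these 4 lists held a called gene by edgeR or DESeq2, nor one at an unadjusted p under 0.05.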
